A study of Caenorhabditis elegans with 12 samples.

Results

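The small RNA and RNA interference machinery of *C. elegans* was described through 45 genes. They were chosen by name for what they do, with earlier results of these data known. All 45 were among the 19089 genes with deposited values, and all 45 had a value above 0 in each of the 12 libraries. Of these, 4 serve the transport of double-stranded RNA between tissues and the gut lumen. Another 8 dice it, handle the first small RNAs or help to make secondary ones. The RNA-dependent RNA polymerase complexes hold 6, and the mutator complex 5. A further 6 act in the ERI pathway of endogenous small RNAs, 5 in nuclear silencing, 6 are secondary Argonautes, 3 serve the piRNA, CSR-1 and small RNA methylation branches, and 2 are microRNA Argonautes.

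Worms that eat bacteria making double-stranded RNA take it up from the gut through SID-2, and SID-1 lets it pass into cells. Dicer and RDE-4 cut it into primary small interfering RNAs that the Argonaute RDE-1 holds, and RNA-dependent RNA polymerases then copy the targeted messenger RNA into many secondary small RNAs, which worm-specific Argonautes carry to the cytoplasm and the nucleus. The same polymerases, mutator proteins and secondary Argonautes serve small RNAs that the worm makes from its own genes, and much of this machinery works in the germ line.

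RNA came from pools of whole CL2006 worms, so all groups carried the same transgene, human Aβ under the *unc-54* promoter, which is active in body wall muscle. The paper's list of strains also gives the plasmid pRF4 for CL2006. EV0S and EVPS worms were fed bacteria with the empty RNAi vector (EV), whereas the food of AB0S and ABPS worms made double-stranded RNA against Aβ (AB), in both cases over 2 generations. From day 1 of adulthood the second generation received the 5MER peptide every day in EVPS and ABPS, or M9 buffer in EV0S and AB0S, and it was harvested at day 6 after daily washing away of progeny. Each group had 3 libraries from 3 repeats, each value is a normalized and batch-corrected read count on a linear scale, and how deeply each library was sequenced is unknown. RNA of the Aβ transgene was not analysed here, so the knockdown itself was not checked. By western blot, the paper reports less Aβ in worms grown on Aβ RNAi bacteria. The AB and EV groups thus differ both in the fed RNA and in Aβ, and these cannot be told apart.

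Repeat 3 of EV0S stood apart from the other EV0S libraries. On the first principal component of all genes, which held 54.5% of the variance, EV0S lay at -36.8, -33.9 and 25, EVPS between -25 and -21.9, AB0S between 36.1 and 44.9, and ABPS between -24.2 and 26.3. The normalized values summed to 24082771 in EV0S repeat 3, the lowest of the 12 libraries, and to 29142841 in EV0S repeat 1, the highest. EV0S repeat 3 held the lowest value of all 12 libraries for 30 of the 45 genes, and for 8 of the 11 that are called below in EVPS. Against the mean of EV0S repeats 1 and 2, its log2 difference was above 0 for 8 of the 45 genes, with a median of -0.16 and a range from -1.20 for *sago-2* to 0.32 for *sid-5*. Counts that use EV0S, and the log2 differences of the genes called there, are therefore also given without this library. Markers of body wall muscle, intestine, hypodermis and neurons were detected in the libraries, as whole worms would hold. In such bulk RNA, fewer cells of a type and less RNA per cell cannot be told apart.

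Per kilobase of exon, the machinery was abundant relative to most genes. The median level of the 45 genes over the 12 libraries was 898 normalized counts per kilobase, against a median of 110 for the 19085 genes with an annotated exon length. The secondary Argonaute *wago-1* was the highest at 9237 per kilobase, followed by *hrde-1*, the germline Argonaute of heritable nuclear silencing, at 7449, and by the Piwi gene *prg-1* at 4057. *ergo-1*, the Argonaute of small RNAs made in oocytes and embryos, stood at 3241 per kilobase, *csr-1* at 3150 and *rde-4* at 2825. At the low end were the somatic secondary Argonaute *sago-2* at 80.7, the sperm-associated Argonautes *alg-3* at 121 and *alg-4* at 136, the polymerase-like gene *rrf-2* at 189 and the gut receptor gene *sid-2* at 320. The 45 genes lie on all 6 chromosomes, with 13 on I, 5 on II, 8 on III, 8 on IV, 7 on V and 4 on X.

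**Figure D1:**
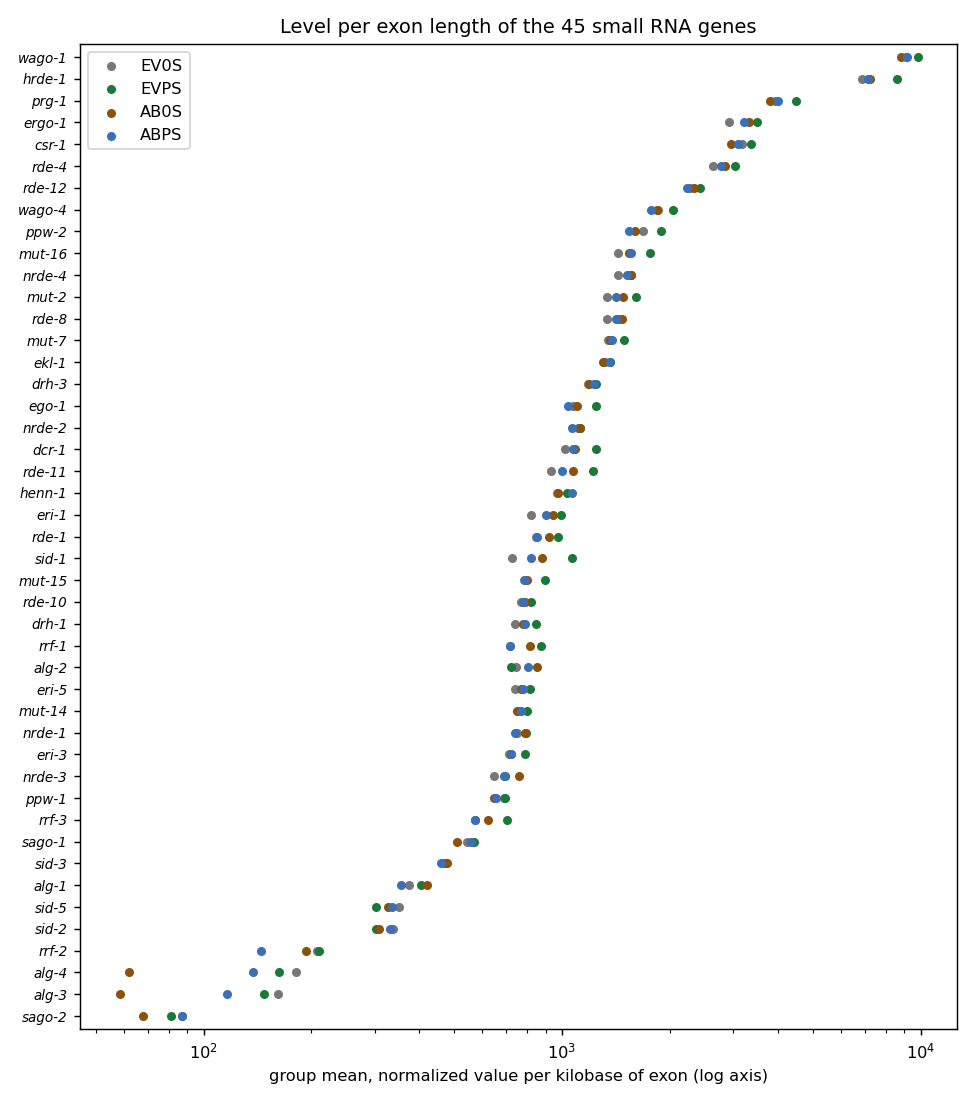
Group means of the 45 small RNA genes in normalized counts per kilobase of exon (horizontal log axis), 1 row per gene and 1 colour per group, with genes in order of their mean over 12 libraries. Levels run from 80.7 for *sago-2* to 9237 for *wago-1*, and the 4 groups lie close to each other for most genes, with *alg-3* and *alg-4* spread the most.

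The peptide was first compared with buffer in worms on the empty vector, where Aβ expression was left in place. In EVPS, 11 of the 45 small RNA genes rose and 0 fell at an adjusted p below 0.1 in limma, which is 24.4% of them, where 7.33% of all 19089 genes were called (5.51% higher and 1.82% lower). The log2 difference was above 0 for 39 of the 45, with a median of 0.12, against 42.4% above 0 and a median of -0.05 over all genes. The 3 EVPS libraries lay above all 3 EV0S libraries for 24 of the 45 genes and below them for 0, where 14.9% of all genes lay above and 12.4% below. The changes were small, from 0.19 to 0.56 on the log2 scale, and the rises were spread over 5 of the 9 roles.

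Among the genes for transport of double-stranded RNA, *sid-1* rose the most of all 45 members. This gene (chromosome V, 5119970 to 5126916 on the plus strand of WBcel235) had normalized counts of 1920, 1980 and 1854 in EV0S and of 2958, 2989 and 2550 in EVPS. In AB0S its values were 2362, 2227 and 2430, and in ABPS 2101, 2110 and 2292. The 3 EVPS libraries were the highest of the 12 and the 3 EV0S libraries the lowest, with no overlap between these groups. The group means were 1918 ± 62.8 in EV0S and 2832 ± 245 in EVPS (SD, n = 3 each), which gave a 1.47-fold rise with the peptide (log2 0.56, SE 0.08, adjusted p = 0.0511 in limma). The other transport genes did not pass the test. *sid-2*, which takes up double-stranded RNA at the gut surface, had 374, 365 and 302 in EV0S and 304, 312 and 318 in EVPS (log2 -0.15, adjusted p = 0.486), and its exons overlap those of *dyf-2*. The kinase gene *sid-3* had 2011, 1968 and 1728 in EV0S and 1870, 1958 and 1907 in EVPS, with a log2 difference of 0.01. *sid-5*, needed for the spread of silencing from the gut, had 157, 177 and 209 against 159, 146 and 164 (log2 -0.20, adjusted p = 0.461). For these 3 genes the EV0S and EVPS libraries overlapped.

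Among the 8 genes grouped under dicing and primary small RNAs, 3 rose and the log2 difference was above 0 for all 8, with a median of 0.20. This group also holds genes that help to make secondary small RNAs. *rde-11*, a zinc finger protein that promotes the making of secondary small RNAs, had 1241, 1245 and 1296 in EV0S and 1728, 1718 and 1512 in EVPS. Its values in AB0S were 1443, 1360 and 1541 and in ABPS 1399, 1314 and 1348, so that EVPS was the highest group apart from 1 AB0S library. The rise was 1.31-fold (log2 0.39, SE 0.07, adjusted p = 0.0511). *rde-1*, the primary Argonaute, had 2815, 2770 and 2567 in EV0S against 3202, 3199 and 2990 in EVPS (log2 0.20, adjusted p = 0.0847). Its AB0S values were 2957, 2908 and 3021, and its ABPS values 2649, 2803 and 2782. *rde-4*, the double-stranded RNA binding partner of Dicer, had 3408, 3145 and 2949 against 3767, 3639 and 3568 (log2 0.21, adjusted p = 0.0947), with 3295, 3546 and 3457 in AB0S and 3292, 3426 and 3324 in ABPS. For all 3 genes every EVPS library lay above every EV0S library. Dicer itself, *dcr-1*, had 6515, 6408 and 5106 in EV0S and 7493, 7616 and 6785 in EVPS, again without overlap, but its log2 difference of 0.29 had an SE of 0.09 and did not pass (adjusted p = 0.126). The remaining genes of this group, *drh-1*, *rde-8*, *rde-10* and *rde-12*, had log2 differences between 0.09 and 0.20 and did not pass.

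The polymerases that amplify silencing gave 2 rises among 6 genes. *rrf-1*, the polymerase of somatic tissues, had 3734, 3691 and 3353 in EV0S, 4310, 4569 and 4318 in EVPS, 4224, 3888 and 4169 in AB0S, and 3467, 3554 and 3760 in ABPS. Its EVPS libraries were the highest of the 12, and the log2 difference from EV0S was 0.29 (SE 0.07, adjusted p = 0.0586). *rrf-3*, the polymerase of the ERI pathway, had 3374, 3325 and 2771 in EV0S, 3925, 4020 and 3737 in EVPS, 3375, 3454 and 3484 in AB0S, and 3104, 3020 and 3389 in ABPS. It rose by 0.31 on the log2 scale (SE 0.08, adjusted p = 0.0756), and its EVPS libraries too were the 3 highest. The germline polymerase *ego-1* had a log2 difference of 0.22 (adjusted p = 0.291), and *drh-3* and *ekl-1*, which work in the polymerase complexes, had 0.08 and 0.05.

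The mutator complex, where secondary small RNAs are made, gave 3 rises among 5 genes, and all 5 had EVPS libraries wholly above EV0S. *mut-2*, which adds nucleotides to the ends of targeted RNAs, had 2119, 2119 and 1987 in EV0S, 2491, 2598 and 2419 in EVPS, 2269, 2312 and 2335 in AB0S, and 2187, 2190 and 2208 in ABPS (log2 0.27 in EVPS, SE 0.05, adjusted p = 0.0511). *mut-16*, the scaffold of the complex, had 5266, 5037 and 4372 in EV0S, 5973, 6244 and 5809 in EVPS, 5182, 5112 and 5502 in AB0S, and 5132, 5343 and 5475 in ABPS (log2 0.30, adjusted p = 0.0691). *mut-15* had 1579, 1653 and 1598 in EV0S, 1852, 1878 and 1798 in EVPS, 1672, 1595 and 1669 in AB0S, and 1595, 1568 and 1696 in ABPS (log2 0.19, adjusted p = 0.0895). In each of these genes the 3 EVPS libraries were the highest of the 12. The exonuclease gene *mut-7* and the helicase gene *mut-14* had log2 differences of 0.15 and 0.08 and did not pass.

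In the ERI pathway, *eri-1* and *ergo-1* rose. *eri-1*, an exonuclease whose loss makes worms more sensitive to RNA interference, had 1767, 1838 and 1791 in EV0S, 2210, 2184 and 2166 in EVPS, 2058, 2132 and 2059 in AB0S, and 2048, 1964 and 1964 in ABPS. The libraries of each group were close together, and the EVPS and EV0S libraries were the highest and the lowest of the 12 (log2 0.28, SE 0.05, adjusted p = 0.0511). *ergo-1* had 11359, 10890 and 9895 in EV0S, 13143, 13107 and 12014 in EVPS, 12020, 12095 and 12342 in AB0S, and 11390, 11941 and 11967 in ABPS. Its log2 difference in EVPS was 0.25 (SE 0.07, adjusted p = 0.0755), with no overlap between EVPS and EV0S. *eri-3* and *eri-5* had log2 differences of 0.15 and 0.14 and did not pass.

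No gene of the remaining roles passed this comparison. The 5 nuclear silencing genes had log2 differences from 0.02 to 0.33, of which *hrde-1* came closest (26253, 25525 and 20968 in EV0S against 30826, 31430 and 28891 in EVPS, adjusted p = 0.102). The 6 secondary Argonautes ranged from -0.01 to 0.18, and the EVPS and EV0S libraries overlapped in all 6. The Piwi gene *prg-1*, *csr-1* and the small RNA methylase *henn-1* had 0.20, 0.10 and 0.10, and the microRNA Argonautes *alg-1* and *alg-2* had 0.11 and -0.04.

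**Figure D2:**
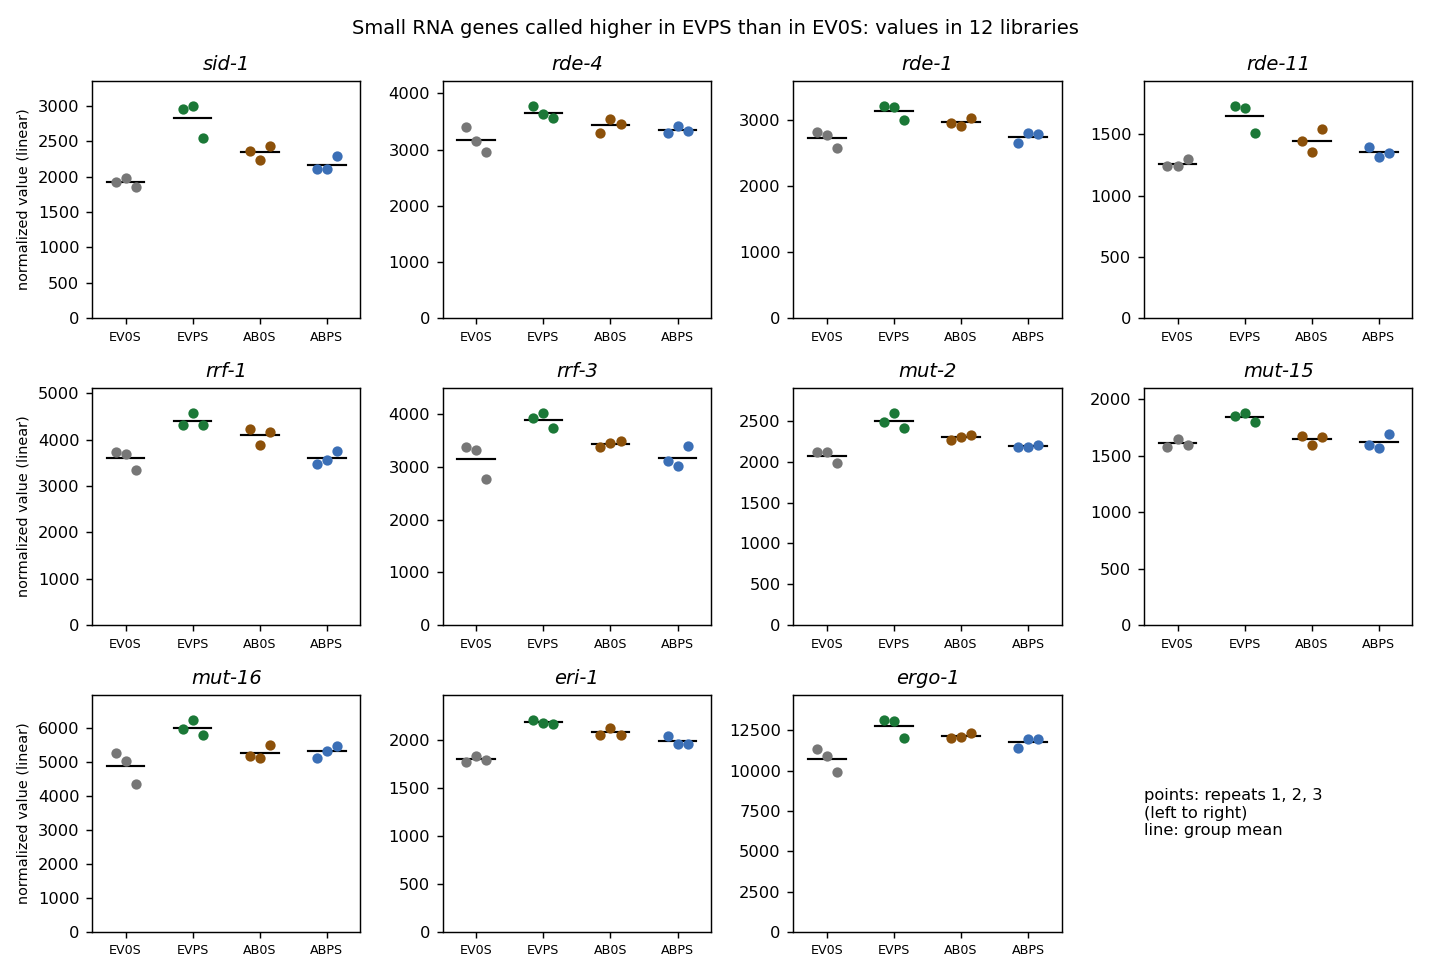
Normalized values (linear vertical axis from 0) in the 12 libraries for the 11 small RNA genes called higher in EVPS than in EV0S, with 1 point per library, repeats 1 to 3 from left to right within a group, and a line at the group mean. EVPS lies above EV0S without overlap in each panel, as for *sid-1* with 2550 to 2989 against 1854 to 1980.

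Each of the 11 genes was higher in EVPS in all 3 pairs of repeats, which follows from the lack of overlap and adds no support. Without EV0S repeat 3, 13 of the 45 were called, 11 higher (10 of those above and *hrde-1*) and *sid-2* and *sago-2* lower, where 13.8% of all genes were called, and 30 of the 45 log2 differences were above 0 with a median of 0.07. In that fit the log2 differences of the 11 lay between 0.17 for *rde-1* and *rde-4* and 0.54 for *sid-1*, and *rde-4* did not pass (adjusted p = 0.118). Without EVPS repeat 3, 4 were called (*sid-1*, *rde-11*, *mut-2* and *eri-1*), where 3.58% of all genes were, and without any other library of the 2 groups, EV0S repeat 1 or 2 or EVPS repeat 1 or 2, 0 were called, as were 0 of all genes. The directions of the 11 held in every one of these fits. Markers of oocytes and the germ line moved with the small RNA genes: 9 of 20 rose in EVPS and 0 fell, where 5.51% of all genes rose and 1.82% fell. That is 45% of the markers with a median log2 difference of 0.29, beside 24.4% and 0.12 for the small RNA genes. Their summed level ran from 451940 to 544273 in EV0S and from 572971 to 611023 in EVPS, against 169054 to 204988 and 208614 to 220151 for the 45 small RNA genes. Without EV0S repeat 3, 11 of these 20 markers were called higher and 0 lower, where 13.8% of all genes were called. Markers of zygotic embryos gave 0 calls among 11, where 7.33% of all genes were called (1 higher without EV0S repeat 3, where 13.8% were). Their sums were 405 to 529 in EV0S and 362 to 382 in EVPS. The part of the germ line in the result was not tested.

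**Figure D3:**
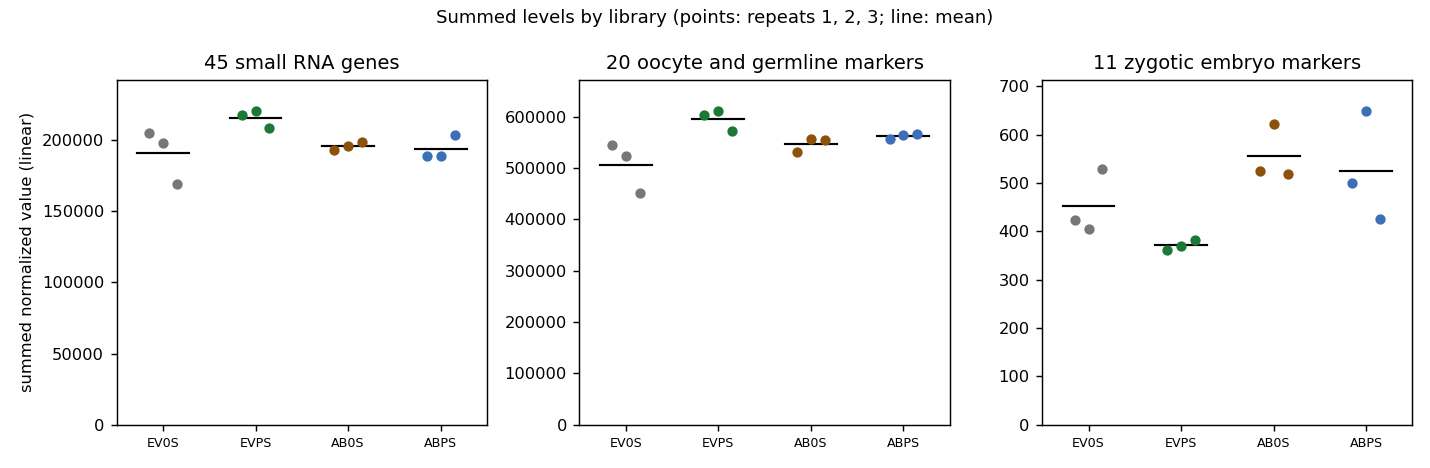
Summed normalized values per library (linear vertical axis from 0) for the 45 small RNA genes, 20 oocyte and germline markers and 11 zygotic embryo markers, with points for repeats 1 to 3 and a line at the group mean. In EVPS the small RNA genes (208614 to 220151) and the germline markers (572971 to 611023) lie above every EV0S library, and the embryo markers (362 to 382) below.

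In worms fed double-stranded RNA against Aβ, the same peptide treatment gave no call. In ABPS against AB0S, 0 of the 45 genes passed the limma test, as did 0 of all genes, and the lowest adjusted p among the 45 was 0.279. At an unadjusted p below 0.05, 4 of the 45 stood out, *alg-3* and *alg-4* higher and *rrf-1* and *rrf-2* lower, where 15.9% of all genes did. The log2 difference was above 0 for 18 of the 45, with a median of -0.03, and the libraries did not overlap for 1 gene in the higher and 10 genes in the lower direction (14.9% and 14.5% of all genes). A fit of these 6 libraries alone called 4 of the 45, the same *alg-3*, *alg-4*, *rrf-1* and *rrf-2*, and 12.7% of all genes. Without ABPS repeat 2, *alg-3* and *alg-4* were called higher, where 3.77% of all genes were called.

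The difference of the peptide effects, EVPS against EV0S minus ABPS against AB0S, was tested directly. It passed for 6 of the 45 genes (13.3%), where 2.98% of all genes passed (2.37% higher and 0.608% lower), and in all 6 the peptide effect was higher on the empty vector. These were *sid-1* (log2 0.67, SE 0.11, adjusted p = 0.0707), *rde-11* (0.48, SE 0.10, adjusted p = 0.0803), *rrf-1* (0.48, SE 0.09, adjusted p = 0.0775), *eri-1* (0.35, SE 0.07, adjusted p = 0.0775), *mut-2* (0.34, SE 0.07, adjusted p = 0.0815) and *rde-1* (0.31, SE 0.08, adjusted p = 0.0993). All 6 are among the 11 that rose in EVPS, and both comparisons use the same EV0S and EVPS libraries. The other 5 of the 11 had differences from 0.22 for *mut-15* to 0.43 for *rrf-3* and did not pass. Without EV0S repeat 3, 16 of the 45 passed, 12 of them higher, where 25.7% of all genes passed, and the 6 genes had differences from 0.28 for *rde-1* to 0.65 for *sid-1*. Without EVPS repeat 3 or ABPS repeat 3 the count was 6 (4.45% and 3.05% of all genes), and without any other library it was 0, as it was for all genes.

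Worms without the peptide were compared between the foods, AB0S against EV0S. The AB worms had been exposed to a substrate of this machinery over both generations, and the paper reports less Aβ on this food. Differences between these groups cannot be assigned to the fed RNA or to Aβ. Here 4 of the 45 genes rose and 2 fell, which is 13.3% against 11.1% of all genes (2.82% higher and 8.26% lower). The genes that rose were *sid-1*, *eri-1*, *nrde-3* and *alg-2*, and those that fell were *alg-3* and *alg-4*. The log2 difference was above 0 for 31 of the 45 (55% of all genes) and its median was 0.04, beside 0.03 over all genes. AB0S lay wholly above EV0S for 13 genes and wholly below for 2, where 12.9% and 14.1% of all genes did. After rescaling by trimmed means, 11 of the 45 were called higher and 2 lower, where 16.7% of all genes were called and 47.9% of those calls were higher. After quantile normalization 1 was higher (*ergo-1*) and 2 lower, where 5.76% of all genes were called.

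*sid-1* and *eri-1*, whose values are given above, had AB0S libraries wholly between those of EV0S and EVPS. *sid-1* averaged 2340 ± 103 in AB0S against 1918 ± 62.8 in EV0S, a 1.22-fold rise (log2 0.29, SE 0.08, adjusted p = 0.0633 in limma). *eri-1* (chromosome IV, 415635 to 419958, minus strand) averaged 2083 ± 42.6 against 1799 ± 36 (log2 0.21, SE 0.05, adjusted p = 0.0484). Both were also called in EVPS, and the 2 comparisons share the EV0S libraries. *nrde-3*, the Argonaute that carries small RNAs into the nuclei of somatic cells, had 2276, 2094 and 2279 in EV0S, 2320, 2515 and 2318 in EVPS, 2673, 2522 and 2641 in AB0S, and 2257, 2489 and 2381 in ABPS. Its 3 AB0S libraries were the highest of the 12, and it rose by 0.24 on the log2 scale (SE 0.06, adjusted p = 0.0684).

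The microRNA Argonaute *alg-2* (chromosome II, 873212 to 879885, plus strand) had 3098, 3041 and 3093 in EV0S and 2922, 2987 and 3051 in EVPS. On Aβ double-stranded RNA its values were 3510, 3532 and 3517 in AB0S and 3348, 3277 and 3357 in ABPS. All 6 AB libraries lay above all 6 EV libraries, with or without the peptide. Its rise in AB0S was 0.19 on the log2 scale (SE 0.05, adjusted p = 0.051), while the difference of ABPS from EVPS, 0.16, did not pass (adjusted p = 0.195). The other microRNA Argonaute of the list, *alg-1*, had log2 differences of 0.15 and -0.18 in these comparisons.

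The genes that act first on fed double-stranded RNA gave no call in AB0S apart from *sid-1*. The gut receptor gene *sid-2* had 320, 312 and 321 in AB0S (log2 -0.12 from EV0S, adjusted p = 0.536), *sid-3* had 1890, 1924 and 1965 (0.02), and *sid-5* had 174, 167 and 166 (-0.09). *dcr-1* had 6312, 6340 and 6515 (0.10, adjusted p = 0.588), *rde-4* gave 0.12 (adjusted p = 0.292) and *rde-1* gave 0.13 (adjusted p = 0.226). For *rde-1* the AB0S libraries nevertheless lay above EV0S without overlap. *rrf-1*, *rde-11*, *mut-2* and *ergo-1*, which rose in EVPS, had log2 differences of 0.19, 0.20, 0.15 and 0.18 in AB0S, and their adjusted p lay between 0.11 and 0.136.

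**Figure D4:**
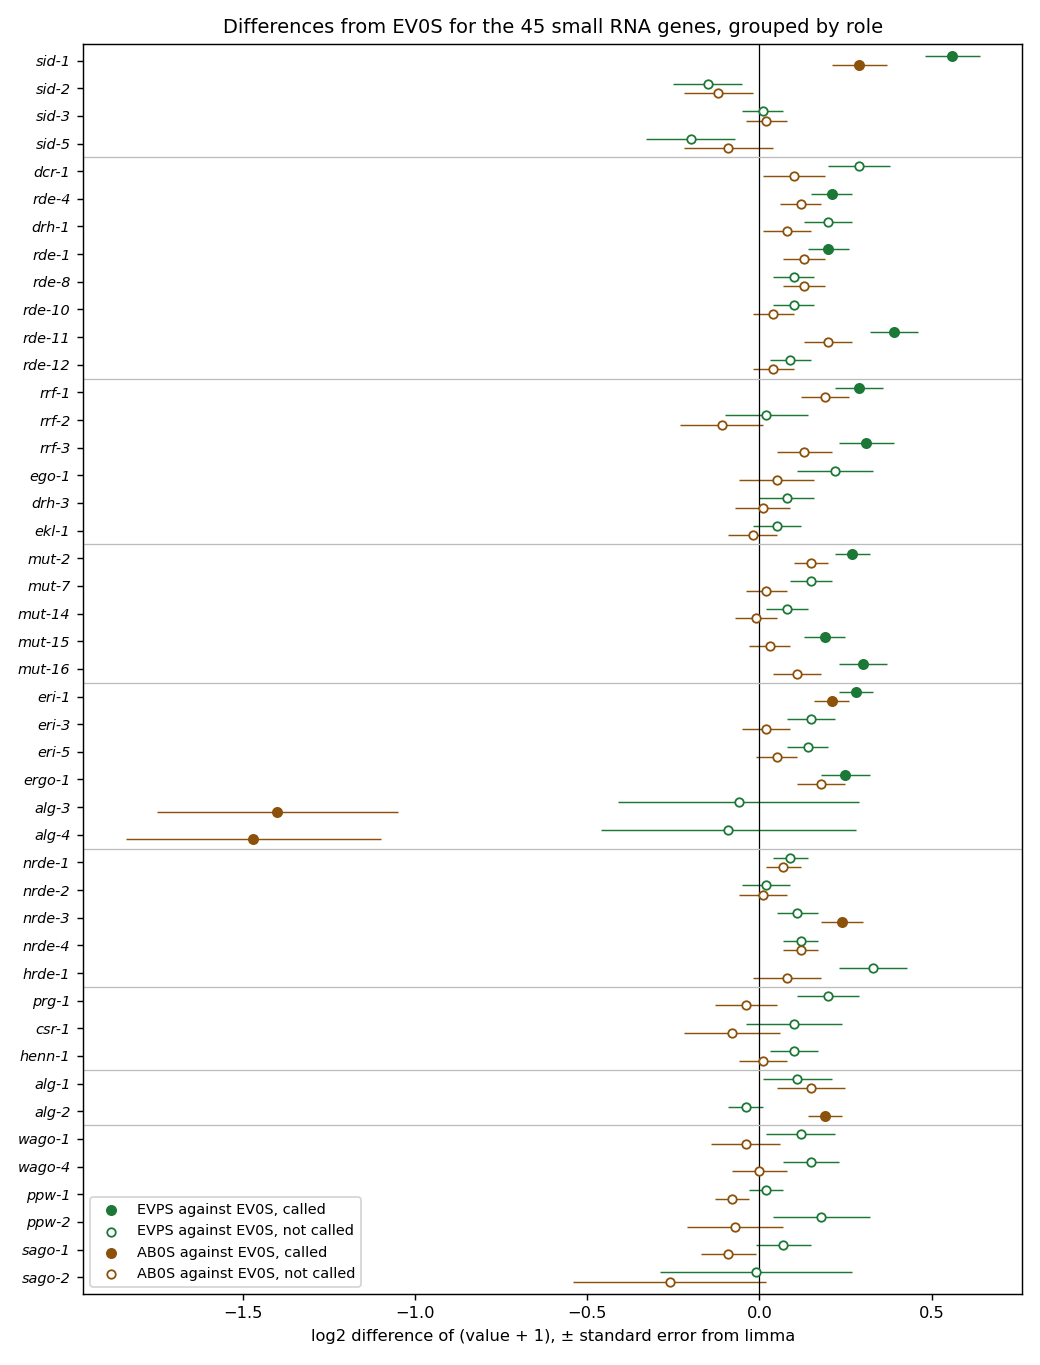
Log2 differences of (value + 1) with standard errors from limma (horizontal axis) for the 45 small RNA genes, grouped by role, for EVPS against EV0S and AB0S against EV0S, which share the EV0S libraries; filled points are called at an adjusted p below 0.1. Most points lie between 0 and 0.4, *sid-1* reaches 0.56 in EVPS, and *alg-3* and *alg-4* stand at -1.40 and -1.47 in AB0S.

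The largest differences among the 45 genes were those of *alg-3* and *alg-4*, closely related Argonautes that carry ERI pathway small RNAs during the making of sperm. *alg-3* (chromosome IV, 11704246 to 11708264, plus strand) had 629, 631 and 322 in EV0S, 447, 483 and 519 in EVPS, 202, 167 and 205 in AB0S, and 382, 191 and 566 in ABPS. *alg-4* (chromosome III, 9887209 to 9891424, minus strand) had 759, 758 and 367 in EV0S, 509, 572 and 605 in EVPS, 221, 200 and 222 in AB0S, and 488, 233 and 704 in ABPS. Both genes followed the same order over the libraries: AB0S was low throughout, EV0S repeat 3 lay well below the other EV0S libraries, and ABPS was split between a low repeat 2 and higher repeats 1 and 3. *alg-3* fell to 0.379 of its EV0S level in AB0S (log2 -1.40, SE 0.35, adjusted p = 0.0581) and *alg-4* to 0.361 (log2 -1.47, SE 0.37, adjusted p = 0.058). Leaving out 1 library at a time moved these log2 differences between -1.87 and -1.06 for *alg-3* and between -1.96 and -1.14 for *alg-4*. With the peptide, in ABPS against AB0S, they were 0.86 and 1.00 and did not pass (adjusted p = 0.296 and 0.279). How the authors' counting treated reads that fit both genes is not known, so the split between them is uncertain.

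Sperm markers moved with these Argonautes. Of 22 sperm markers, 10 fell in AB0S and 0 rose, where 8.26% of all genes fell and 2.82% rose. Without EV0S repeat 3, 21 fell and 0 rose, where 34.2% of all genes were called in either direction. Without any other library of these groups the count was 0. Most of the 22 are *msp* genes whose levels moved together over the libraries, so they are not separate results. The median log2 difference of the 22 was -1.32. Their summed level ran from 4547 to 12095 in EV0S, 7221 to 10622 in EVPS, 3367 to 3724 in AB0S and 4333 to 11956 in ABPS. In ABPS against AB0S, 0 of the 22 passed, and the median was 1.17. At an unadjusted p below 0.05, 19 were higher, where 15.9% of all genes stood out. *wago-10*, another Argonaute gene that is no member, had 250.7, 232.9 and 112.7 in EV0S, 178.4, 211.7 and 218.2 in EVPS, 83.1, 63.7 and 77.3 in AB0S, and 136.6, 75.3 and 202.1 in ABPS, and it fell in AB0S (log2 -1.32, SE 0.36, adjusted p = 0.0698). Of 8 body wall muscle markers 1 fell in AB0S, *unc-54*, where 8.26% of all genes fell. It had 81501, 79388 and 43596 in EV0S and 38116, 38440 and 40197 in AB0S. The *unc-54* promoter also drives the Aβ transgene. Without EV0S repeat 3 the count was 8, where 34.2% of all genes were called in either direction. The 8 summed to between 110170 and 117922 in AB0S and between 110355 and 188432 in EV0S. Whether the number of sperm, or the amount of RNA in each, differed was not tested.

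**Figure D5:**
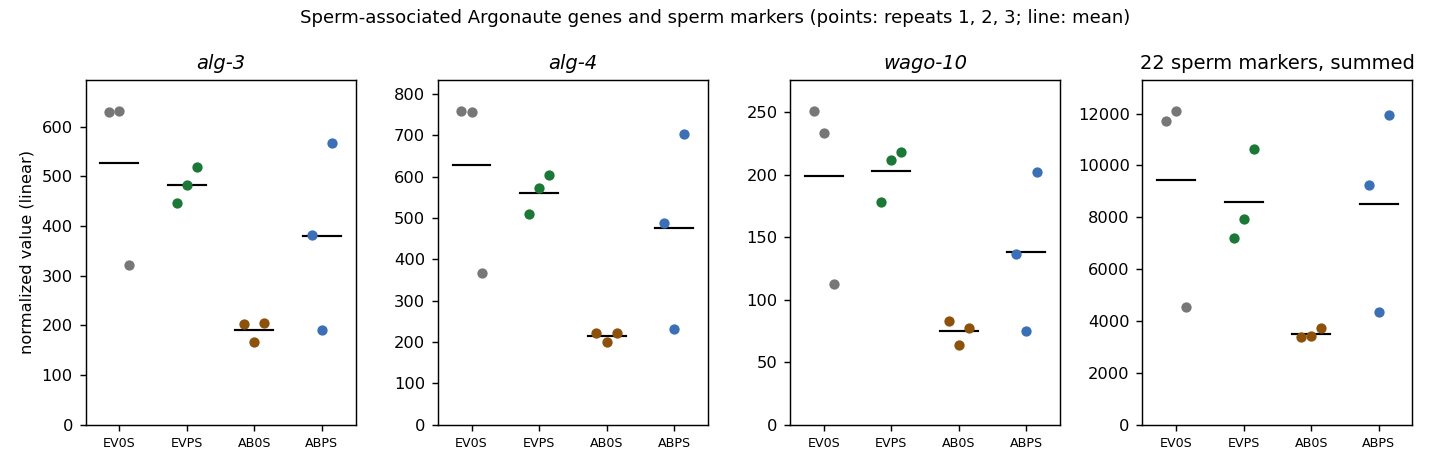
Normalized values (linear vertical axes from 0) of *alg-3*, *alg-4*, *wago-10* and the sum of 22 sperm markers in the 12 libraries, with points for repeats 1 to 3 and a line at the group mean. All 4 panels show low AB0S libraries (167 to 205 for *alg-3*), a low EV0S repeat 3 (322) and a low ABPS repeat 2 (191).

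These AB0S results also depended on EV0S. Without EV0S repeat 3, 15 of the 45 genes were called, 6 higher and 9 lower, where 34.2% of all genes were called, and 21 of the 45 log2 differences were above 0 with a median of -0.01. In that fit *sid-1*, *eri-1*, *nrde-3* and *alg-2* had log2 differences of 0.26, 0.22, 0.26 and 0.19, and *alg-3* and *alg-4* of -1.87 and -1.96, and all 6 passed. Without any other library of the AB0S and EV0S groups, 0 of the 45 were called, where between 0.0524% and 1.29% of all genes were.

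With the peptide given to both, ABPS was compared with EVPS. No gene of the 45 passed (lowest adjusted p 0.133 for *sid-1*), where 0.272% of all genes passed. At an unadjusted p below 0.05, 15 of the 45 stood out, 1 higher and 14 lower, against 15.8% of all genes. The log2 difference was below 0 for most, with 6 above 0 and a median of -0.12, beside 50.4% above 0 and a median of 0.00 over all genes. ABPS lay wholly below EVPS for 24 of the 45 and wholly above for 1, *alg-2*, where 15.1% and 16.2% of all genes did. These are the EVPS libraries in which 11 of the genes were called higher than in EV0S, so the comparisons are not independent.

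The largest of these log2 differences was that of *rrf-2*, a polymerase-like gene whose role in silencing is not settled. Its values were 917, 972 and 1137 in EV0S, 1009, 1081 and 973 in EVPS, 1062, 763 and 988 in AB0S, and 667, 740 and 707 in ABPS. All 3 ABPS libraries were below the other 9, at 0.691 of the EVPS level (log2 -0.53, SE 0.12, adjusted p = 0.159) and with a log2 difference of -0.40 from AB0S (adjusted p = 0.279). *ppw-2*, a germline secondary Argonaute, had 6222, 5844 and 4402 in EV0S, 6065, 6290 and 6095 in EVPS, 5304, 4796 and 5490 in AB0S, and 4820, 4228 and 5984 in ABPS. Its ABPS libraries lay below EVPS without overlap but were spread widely (log2 -0.31, SE 0.14, adjusted p = 0.332). *sid-1* had a difference of -0.38 here, *rrf-3* of -0.30 and *rrf-1* and *rde-11* of -0.29 each, and none passed. Without ABPS repeat 3, 5 of the 45 were called lower, where 4.21% of all genes were called, and without EVPS repeat 3, 3 were called lower, where 2.5% of all genes were.

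By group means, EVPS was the highest of the 4 groups for 33 of the 45 genes and EV0S the lowest for 23. Without EV0S repeat 3 these counts were 27 and 12. EVPS was the highest for all 11 genes called in EVPS, with or without that library, which the choice of those 11 favours. EV0S was the lowest for all 11 with it and for 8 without it, when ABPS was the lowest for *rde-1*, *rrf-1* and *rrf-3*, and the means of *rrf-1* in EV0S and ABPS were both 3593 with it.

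A second list held 50 further genes of small RNA pathways. In EVPS, 13 of the 50 rose and 0 fell (26%, against 7.33% of all genes called), with a median log2 difference of 0.14. The smallest p-values among them belonged to *alg-5*, a microRNA-binding Argonaute of the germ line (log2 0.37, adjusted p = 0.0511), *drsh-1*, the Drosha nuclease that starts microRNA processing (0.34, adjusted p = 0.0511), the nucleotidyltransferase genes *pup-2* (0.33, adjusted p = 0.0539) and *pup-3* (0.45, adjusted p = 0.0544), and *tofu-1*, needed for piRNA production (0.21, adjusted p = 0.0611). The difference of the peptide effects passed for 6 of the 50 (12%, against 2.98%), all higher on the empty vector, and 0 passed in ABPS against AB0S (1 at an unadjusted p below 0.05). In AB0S, 5 rose, among them *ain-2*, a partner of microRNA Argonautes (0.21, adjusted p = 0.0641), and *wago-10* fell, which is 12% and close to the 11.1% of all genes called there. In ABPS against EVPS, 0 passed and 11 had an unadjusted p below 0.05, against 15.8% of all genes. Without EV0S repeat 3, 15 of the 50 were called higher and 1 lower in EVPS, where 13.8% of all genes were called. The difference of the effects then passed for 15 higher and 4 lower, where 25.7% of all genes passed. In AB0S 10 were called higher and 6 lower, no larger a share than the 34.2% of all genes. Without EVPS repeat 3, 8 were called in EVPS (3.58% of all genes) and 7 in the difference of the effects (4.45% of all genes). Without ABPS repeat 3, 5 passed that difference (3.05% of all genes). Leaving out any other library gave 0 calls among the 50 in these comparisons.

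Reads were sequenced from stranded libraries, but whether strand was used in counting is not known, and 11 of the 45 genes share exon bases with another listed gene. Of the genes called above, *rrf-3*, *mut-2* and *ergo-1* do, over 37, 67 and 17 bases.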

How the data were processed

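Stranded mRNA libraries of 12 pools of whole worms (4 groups of 3 repeats) were analysed, grouped by the sample titles. The authors trimmed the reads (cutadapt 2.10), aligned them to WBcel235 (TopHat2 2.1.1), counted them per gene (HTSeq 2.01) and divided the counts by DESeq2 1.36.0 size factors. What the authors deposited are such normalized counts, corrected further for the repeats by a method not given in the sources used here. They are no longer whole numbers, 307 of 229068 are below 0, and depth is unknown, so no count test was run.

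After values below 0 had been replaced by 0, limma 3.58.1 (R 4.3.3) was used to fit log2(value + 1) for 19089 genes in all 12 libraries, with group and repeat number as terms and eBayes with a trend. A gene was called at an adjusted p (Benjamini-Hochberg) below 0.1, the study's threshold. A log2 difference on this scale understates changes of low genes. The same repeat number marks the same of the study's 3 independent repeats, whose effect the authors had removed. Residuals of libraries with the same number correlated at -0.181 on average, and those with different numbers at 0.0923. A single value compared between 3 and 3 libraries cannot reach an exact permutation p below 0.1.

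The small RNA genes, the list of further pathway genes and the marker lists were chosen with earlier results of these data known. Values per library are given for each of the 45 genes that was called, that did not overlap between EV and AB groups with a log2 difference of at least 0.3, or that is *sid-1*, *sid-2*, *sid-3*, *sid-5*, *rde-1*, *rde-4*, *dcr-1* or *rrf-1*; of the further genes, at most 5 called ones per comparison are named. Values of *hrde-1*, *wago-10*, *unc-54* and *rol-6*, and the names of genes outside this rule, were chosen after seeing them. Of the other marker lists, hypodermis gave 1 of 6 genes lower in EVPS, *dpy-7*, and a different 1 in AB0S, *rol-6*. Of all genes 7.33% and 11.1% were called there. *rol-6* had 9579, 9440 and 7109 in EV0S and 2950, 2960 and 3182 in AB0S (log2 -1.51, adjusted p = 0.00147 in limma). It was also lower in ABPS than in EVPS (log2 -0.82, adjusted p = 0.0376), where 0.272% of all genes were called. Intestine (7 genes) and neurons (8 genes) gave 0 calls in these comparisons. Ensembl 115 (WBcel235) gave positions, exon lengths and overlaps for 19085 genes. The fit was tested on simulated data. Alternatives were pseudocounts of 0.1 and 5, a mean value of at least 10, no replicate block, only the 2 groups compared, rescaling by trimmed means, quantile normalization, no trend, and each library left out in turn.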

Additional observations from a re-analysis of the deposited data

Results flagged for a closer look

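The peptide effect differed between worms on the empty vector and worms on Aβ double-stranded RNA for 6 of the 45 genes, by a test of the difference itself in limma. The difference of the log2 effects was 0.67 for *sid-1*, 0.48 for *rde-11*, 0.48 for *rrf-1*, 0.35 for *eri-1*, 0.34 for *mut-2* and 0.31 for *rde-1*. In each of the 6 the 3 EVPS libraries lay above the 3 EV0S libraries, which the choice of the 6 by a test on these libraries favours. None of the 6 passed the test in ABPS against AB0S, where 0 of all genes did. The groups hold 3 libraries each, so single libraries were not tested as outliers.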

How the results depend on the processing

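Among the 45 genes, 11 were called in EVPS against EV0S, where 7.33% of all genes were. After rescaling by trimmed means the count was 17 (12.5% of all genes). It was 0, as it was for all genes, without the trend and with only the 2 groups compared. Leaving out 1 library at a time gave 0 to 13, where up to 13.8% of all genes were called. In ABPS against AB0S the 0 calls became 4 with only the 2 groups (12.7% of all genes). With 1 library left out they were 0 to 2 (up to 3.77% of all genes). The difference of the peptide effects passed for 6 (2.98% of all genes). It passed for 11 after rescaling by trimmed means (7.54% of all genes), 10 after quantile normalization (4.83%) and 0 without the trend (0%). With 1 library left out it passed for 0 to 16 (up to 25.7% of all genes). In AB0S against EV0S the 6 calls (11.1% of all genes) became 10 without the replicate block (17.7%) and 13 by trimmed means (16.7%). They were 3 after quantile normalization (5.76% of all genes), 0 without the trend (5.4%) and 2 with only the 2 groups (4.14%). With 1 library left out they were 0 to 15 (up to 34.2% of all genes). In ABPS against EVPS the 0 calls became 9 without the replicate block (4.82% of all genes) and 1 with only the 2 groups (0.487%). With 1 library left out they were 0 to 5 (up to 4.21% of all genes). Pairing by repeat number was taken from the study's description. Without the block 14 were called in EVPS (13% of all genes) and 9 passed the difference of the peptide effects (9.35% of all genes). Why the counts moved was not tested. Over all genes, the calls ranged from 0 to 2490 in EVPS against EV0S and from 791 to 3380 in AB0S against EV0S over the settings other than a left-out library. The share of calls that were higher went from 75.1% to 85.4% in the former and from 25.4% to 47.9% in the latter by trimmed means. No called gene changed direction. Among uncalled genes, quantile normalization turned *sid-3* to -0.05 in EVPS and -0.01 in AB0S, and *sid-5* to 0.01 in AB0S. With 1 library left out, *sid-3* ranged from -0.07 to 0.07 in EVPS, -0.06 to 0.08 in AB0S and -0.02 to 0.12 in the difference of the effects, *dcr-1* from -0.12 to 0.03 in ABPS against AB0S and -0.02 to 0.17 in AB0S, and *sid-5* from -0.06 to 0.15 in ABPS against AB0S and -0.20 to 0.04 in AB0S. Unknown depth and 3 libraries a group limit all of these values.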
